A study of Sus scrofa with 4 samples.

Results

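The 10 genes described here encode proteins of the junctions that hold epithelial cells together: the claudins CLDN1, CLDN3, CLDN4, CLDN7 and CLDN10, occludin (OCLN), the scaffold ZO-1 (TJP1), the adhesion molecule JAM-A (F11R), E-cadherin (CDH1) and the epithelial adhesion molecule EPCAM. They were chosen by name from the gene lists deposited with the matrices. 9 of the symbols stand in those lists. CLDN7 has no symbol there and was found by its gene identifier, ENSSSCG00000017934, so that 10 of 21280 listed genes are described. The rule itself uses no measured value.

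The study profiled pig (Sus scrofa) embryos and pig endometrium, the lining of the uterus, on days 9 and 12 of pregnancy by droplet-based 3′ single-cell RNA sequencing. There were 4 groups: embryo on day 9, embryo on day 12, endometrium on day 9 and endometrium on day 12. The labels give no treatment, genotype, breed or age of the animals, nor how many embryos or sows were pooled in a library. Embryos were separated into cells with papain, dispase and DNase I, and endometrium with type II and IV collagenases, dispase and DNase I. Each group is 1 library, so nothing separates a difference between days from a difference between libraries, and no difference was tested. All levels are unique molecular identifiers (UMIs, counts of captured RNA molecules) of a gene given as CPM, the usual scaling of counts to library size, summed over the cells of a class. Brackets after a level hold an exact 95% Poisson interval and brackets after a ratio an exact 95% binomial interval. Both cover counting error only.

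Tight junctions seal the space between neighbouring epithelial cells near their apical side. Claudins form their strands and set which ions and solutes pass; occludin and JAM-A lie with them, and ZO-1 ties them to actin. Adherens junctions lie just below and are built on E-cadherin, whose tail binds the catenins. EPCAM is a surface glycoprotein of epithelia that binds and stabilises CLDN7. In the pig the trophectoderm, the outer epithelium of the embryo, lengthens greatly between these days and then attaches to the luminal epithelium of the uterus without invading it.

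The libraries differ before any biology is considered. Cells kept numbered 7000 and 6671 in the embryo and 7984 and 8962 in the endometrium (day 9, then day 12), with a median of 11883.5, 9297, 2639 and 2233 UMIs per cell. The day 9 embryo matrix stands apart because it holds 657829 barcodes from before cell calling; the other matrices hold only barcodes of 500 UMIs or more. Pairs of libraries shared between 54 and 105 cell barcodes. The libraries were clustered separately, with junction genes left out of the clustering, and clusters were named from marker genes. Trophectoderm-like cells numbered 651 on day 9 (cluster 5) and 3247 on day 12 (clusters 2, 3, 6 and 9), and hypoblast-like cells 5862 (clusters 1, 2, 3, 4, 7 and 8) and 2545 (clusters 1, 4 and 10). The hypoblast is the layer that lines the embryo's inner cavity. Epithelial-like cells of the endometrium numbered 639 (clusters 6 and 8) and 344 (clusters 9 and 16). Summed trophectoderm markers stood at 7382 and 14537 CPM in the trophectoderm-like class and at 210 and 874 CPM in the hypoblast-like class. Summed hypoblast markers reached 4040 and 2865 CPM in the trophectoderm-like class, and summed stromal markers 6265 and 9128 CPM in the epithelial-like class. The part of these other cells' RNA in the results was not tested.

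The genes lie on 8 chromosomes of the Sscrofa11.1 assembly, the build the submitters' processing notes name. CLDN3 (chromosome 3, 11019073 to 11020102) and CLDN4 (chromosome 3, 11039711 to 11053930) are neighbours with 19608 bases between them. EPCAM is on the same chromosome at 93169800 to 93185221. CLDN1 spans 127714857 to 127730628 on chromosome 13, CLDN7 spans 52612517 to 52628376 on chromosome 12 and CLDN10 spans 65027706 to 65145002 on chromosome 11. OCLN lies on chromosome 16 (47600175 to 47652435), TJP1 on chromosome 1 (144930387 to 145195857), F11R on chromosome 4 (89425101 to 89447889) and CDH1 on chromosome 6 (18075487 to 18155986). These are whole-gene spans from RefSeq, and the 3′ counts do not separate isoforms.

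**Figure D1:**
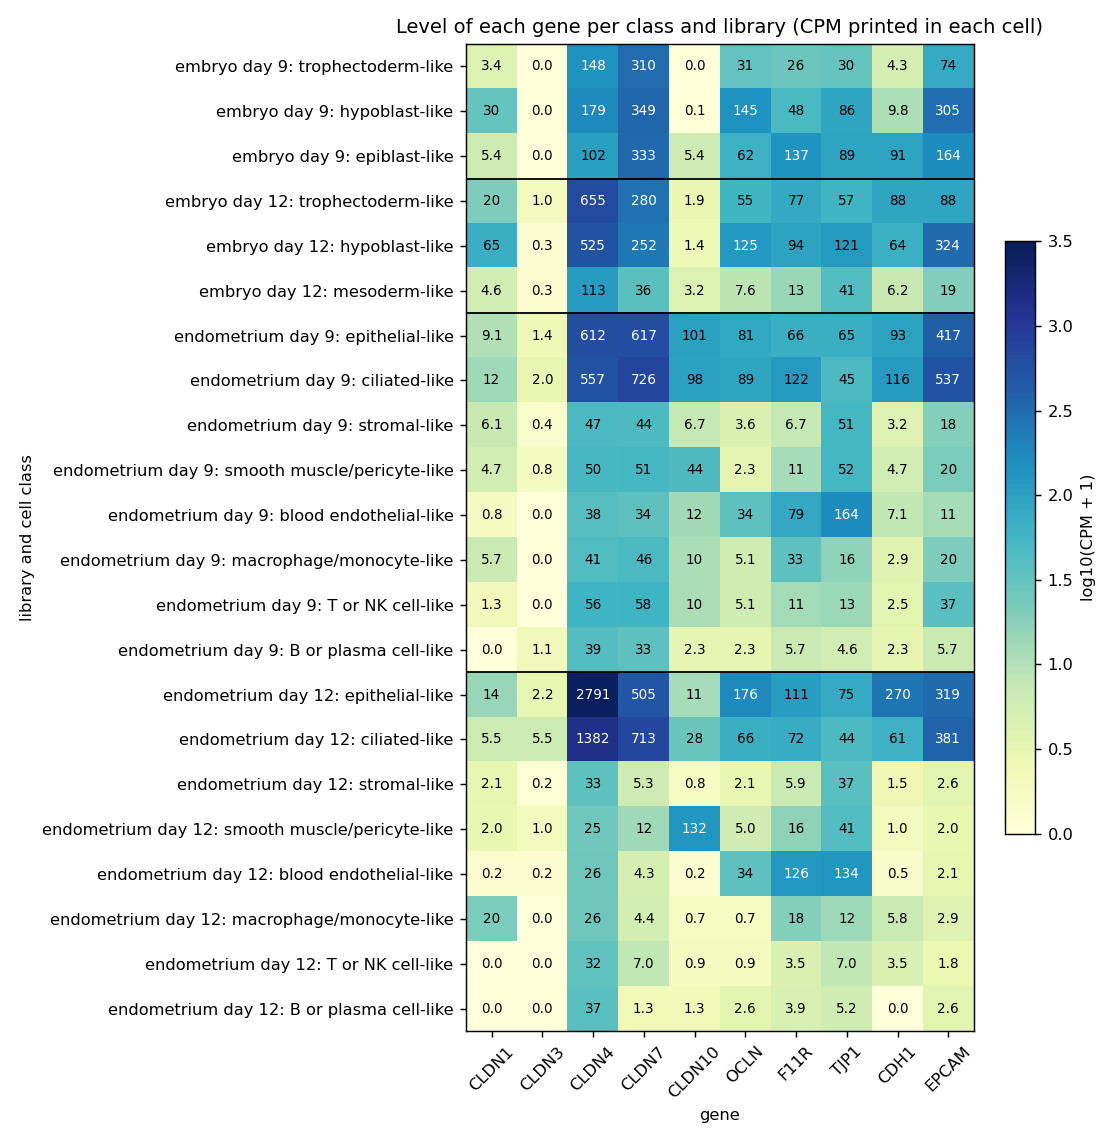
Level of each of the 10 genes (columns) in each cell class and library (rows), as CPM of summed UMIs, with colour on a log scale and the value in each square. CLDN4 reads 2791 CPM in day 12 epithelial-like cells against 25 to 37.5 CPM in the non-epithelial endometrial classes, while CLDN3 stays near 0 throughout.

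In the embryo, CLDN4 and CDH1 were both higher on day 12 than on day 9, in the trophectoderm-like and the hypoblast-like class alike. CLDN4 in trophectoderm-like cells stood at 148 CPM (137 to 160) on day 9 and 655 CPM (646 to 665) on day 12, a ratio of 4.43 (4.10 to 4.79). CDH1 stood at 4.29 CPM (2.58 to 6.70) and 87.8 CPM (84.3 to 91.3), a ratio of 20.4 (13.1 to 34.0), with 19 UMIs behind the day 9 value. CLDN7, the partner of EPCAM, differed little. The levels were 310 CPM and then 280 CPM, a ratio of 0.903 (0.852 to 0.957), and on a scaling that sets the median gene ratio to 1 this small difference turned to the other side (log2 ratio -0.15 against 0.14).

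In trophectoderm-like cells 7 of the 10 genes reached 20 CPM on a day, and CLDN1, CLDN3 and CLDN10 did not. Of the 7, 3 were at least 2-fold higher on day 12 (CLDN4, F11R and CDH1) and 0 were 2-fold lower. The same rule called 25.8% of 4563 genes higher and 13.9% lower. Nothing particular to junction genes is read from so small a count. For single genes, 2.56% of genes had a larger ratio than CDH1 and 10.3% a larger ratio than CLDN4. Over all genes called, 65.0% were higher, and 82.9% were higher on the median scaling, which shifts log2 ratios by 0.29. On that scaling 8 of the 10 genes reached 20 CPM and 6 of these were 2-fold higher, beside 34.1% of 4960 genes, so the count depends on the scaling.

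The other proteins of the tight junction strand were also higher in day 12 trophectoderm-like cells. F11R (JAM-A) was at 26.4 and then 77.4 CPM (ratio 2.93, 2.43 to 3.56). OCLN was at 31.4 and 55.2 CPM (1.76, 1.48 to 2.11), and TJP1, the scaffold beneath it, at 29.8 and 57.2 CPM (1.92, 1.60 to 2.31). CLDN1, a claudin of many barrier epithelia, was at 3.39 and 19.6 CPM (5.79, 3.48 to 10.4), just under the level set for a call. EPCAM differed less, at 74.1 and 88.2 CPM (1.19, 1.06 to 1.34). CLDN10, whose isoforms form ion-selective pores, had 0 UMIs on day 9, which allows up to 0.678 CPM, and 1.90 CPM on day 12. CLDN3 likewise had 0 UMIs on day 9 and 1.02 CPM on day 12.

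The day 9 side of this comparison rests on where cells were called. With day 9 barcodes kept from 1000 UMIs, the trophectoderm-like class grew to 1136 cells. The log2 ratio of CDH1 was then 3.76 in place of 4.07 and that of CLDN4 2.07 in place of 2.14. That of OCLN was 0.14 in place of 0.79, that of TJP1 0.45 in place of 0.92 and that of EPCAM -0.33 in place of 0.25, so the EPCAM difference changed direction. The barcodes of the day 9 embryo matrix with under 100 UMIs, usually taken to hold RNA from outside cells, had EPCAM at 234 CPM, above the 74.1 CPM of the trophectoderm-like cells. In the same barcodes CLDN4 stood at 180 CPM, CLDN7 at 322 CPM, OCLN at 83.9 CPM, TJP1 at 69.0 CPM and F11R at 28.9 CPM. CLDN1 stood at 9.65 CPM, CLDN10 at 4.45 CPM and CDH1 at 2.23 CPM (0.459 to 6.51, from 3 UMIs). All of these genes except CDH1 thus stood in those barcodes at or above their day 9 trophectoderm-like level. The CDH1 interval includes the 4.29 CPM of the trophectoderm-like cells, so the order is not set for that gene. The part of that RNA in the day 9 values was not tested.

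In hypoblast-like cells the same pair led. CDH1 was at 9.80 CPM (9.10 to 10.5) on day 9 and 64.3 CPM (61.4 to 67.3) on day 12, a ratio of 6.56 (6.02 to 7.16). CLDN4 was at 179 and 525 CPM (2.94, 2.87 to 3.0) and CLDN1 at 29.7 and 65.4 CPM (2.20, 2.07 to 2.34). Of the 8 genes that reached 20 CPM on a day these 3 were 2-fold higher and 0 were lower, against 10.8% of 4943 genes higher and 10.2% lower by the same rule. Of all genes called there, 51.4% were higher, or 67.4% on the median scaling (a shift of 0.16).

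The other 5 genes that reached 20 CPM in the hypoblast-like class stayed within 2-fold with counts scaled to the total. On the median scaling F11R was called as well, which made 4 of 8 genes higher, beside 13.4% of all genes. F11R was at 48.3 and 94.0 CPM (1.95, 1.85 to 2.05) and TJP1 at 85.5 and 121 CPM (1.41, 1.35 to 1.47). OCLN was at 145 and 125 CPM (0.860, 0.828 to 0.893), CLDN7 at 349 and 252 CPM (0.723, 0.704 to 0.742), and EPCAM at 305 and 324 CPM (1.06, 1.04 to 1.09). Far below that level, CLDN10 was at 0.0936 and 1.38 CPM (14.8, 6.55 to 39.1, from 7 and 40 UMIs), and CLDN3 had 0 and 8 UMIs. CLDN4 was thus higher and CLDN7 lower on day 12 in these cells. There were 0.478 CLDN4 UMIs per CLDN7 UMI in trophectoderm-like cells on day 9 and 2.34 on day 12, and 0.513 and 2.08 in hypoblast-like cells.

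Differences between the embryonic classes within a library do not involve the day. On day 9 hypoblast-like cells had more EPCAM than trophectoderm-like cells (4.11-fold, 3.69 to 4.6), more OCLN (4.63-fold, 3.91 to 5.51), more TJP1 (2.87-fold) and more CLDN1 (8.77-fold). CLDN4 and CLDN7 differed by 1.21-fold and 1.13-fold. On day 12 EPCAM was still 3.68-fold higher in hypoblast-like cells (3.52 to 3.85), OCLN 2.26-fold and CLDN1 3.33-fold. CDH1 had changed sides: it was 2.28-fold higher in hypoblast-like cells on day 9 and 1.37-fold higher in trophectoderm-like cells on day 12 (1.29 to 1.45). EPCAM, OCLN, TJP1 and CLDN1 were thus higher on the hypoblast-like side on both days. For EPCAM and OCLN the day 9 hypoblast-like levels of 305 and 145 CPM also lay above the 234 and 83.9 CPM of the low-UMI barcodes.

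Of 8 genes that reached 20 CPM in a named embryonic class on day 12, 3 were highest in trophectoderm-like cells (CLDN4, CLDN7 and CDH1), as was CLDN3 at 1.02 CPM. On day 9 the count was 0 of 7. Among all genes at 20 CPM or more in a class, 26.8% on day 12 and 38.9% on day 9 were highest in trophectoderm-like cells. Under 6 other settings an epiblast-like class of 77 to 126 cells was named on day 12. With CLDN3 included, the count of 4 was then 2 under 4 of them, 3 under another and 4 under the last.

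The clusters within the day 12 classes were not alike. Among trophectoderm-like clusters CDH1 was at 104 CPM in cluster 2 (1760 cells, led by SGPP1 and TP63) and 86.1 CPM in cluster 9 (96 cells, led by the interferon-response genes MX1 and ISG15), but at 44.8 CPM in cluster 3 and 23.4 CPM in cluster 6. CLDN4 had another order, with 851 CPM in cluster 3, 627 CPM in cluster 2, 619 CPM in cluster 9 and 359 CPM in cluster 6. Cluster 3 has a mitochondrial gene among its leading genes and a median of 3858 UMIs per cell, against 11075.5 in cluster 2. Every one of these clusters lay above the day 9 class in both genes. Of the hypoblast-like clusters, CLDN1 was at 77.6 CPM in cluster 1 and at 20.4 and 5.54 CPM in clusters 4 and 10, the last led by the liver-type secretory genes TTR, FGB and APOB. EPCAM was at 339, 285 and 149 CPM in the same 3 clusters.

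Depth differed between the embryonic classes, with a median of 5703 and 8221 UMIs per trophectoderm-like cell on days 9 and 12. The median mitochondrial share was 0.546% and 3.63% in these cells and 3.47% and 3.41% in hypoblast-like cells. The part of this difference in the comparisons of days and classes was not tested. At 1000 UMIs per cell CLDN4 was seen in 15.5% of trophectoderm-like cells on day 9 (12.8 to 18.5) and 51.7% on day 12 (50 to 53.5), beside 56.4% and 95.1% before thinning. CDH1 was seen in 0.154% and 8.04% (2.76% and 45.2% before), the day 9 value being 1 of 651 cells. In hypoblast-like cells the thinned shares were 16.6% and 40.2% for CLDN4 and 1.21% and 6.09% for CDH1 (83.7% and 96.5%, and 11.4% and 49.7%, before). Mesoderm-like cells, the named class lowest in CDH1 on day 12, had it in 0 of 199 thinned cells (exact binomial upper bound 1.84%) and in 10.6% before thinning.

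Mesoderm-like cells of day 12 (199 cells, cluster 7), which are not an epithelium, were low in nearly every junction gene. CDH1 was at 6.20 CPM there, 14.2-fold below trophectoderm-like cells, CLDN7 at 35.6 CPM (7.86-fold below), OCLN at 7.55 CPM (7.31-fold below) and EPCAM at 18.6 CPM (4.74-fold below). CLDN4 was still at 113 CPM (5.78-fold below), with 3.18 CLDN4 UMIs per CLDN7 UMI. TJP1, which also serves cells without tight junctions, was at 41.0 CPM and only 1.40-fold below. Summed trophectoderm markers reached 1865 CPM in this class, and their part in its CLDN4 was not tested.

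Epiblast-like cells of day 9 (24 cells, cluster 10), the pluripotent layer that forms the fetus, were too few for a firm comparison. CDH1 was at 91.2 CPM (63.2 to 127, from 34 UMIs) and F11R at 137 CPM (102 to 180). The trophectoderm-like and hypoblast-like classes of day 9 had 4.29 and 9.80 CPM of CDH1 and 26.4 and 48.3 CPM of F11R. Not all junction genes were higher: CLDN4, with 38 of 372682 UMIs, lay below both classes, and EPCAM, with 61, lay between them. Summed hypoblast markers stood at 6228 CPM in these cells and summed epiblast markers at 1170 CPM. No epiblast marker was among the leading genes of the cluster. On day 12 an unnamed cluster of 142 cells (cluster 8), led by CLDN10, TUBB3, CRABP2 and EOMES and high in 6 of 8 epiblast markers, had CLDN10 at 296 CPM. All named day 12 embryonic classes were at 1.38 to 3.24 CPM of CLDN10. Its CDH1 was at 80.9 CPM and its F11R at 128 CPM, with CLDN4 at 161 CPM, below trophectoderm-like and hypoblast-like cells.

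**Figure D2:**
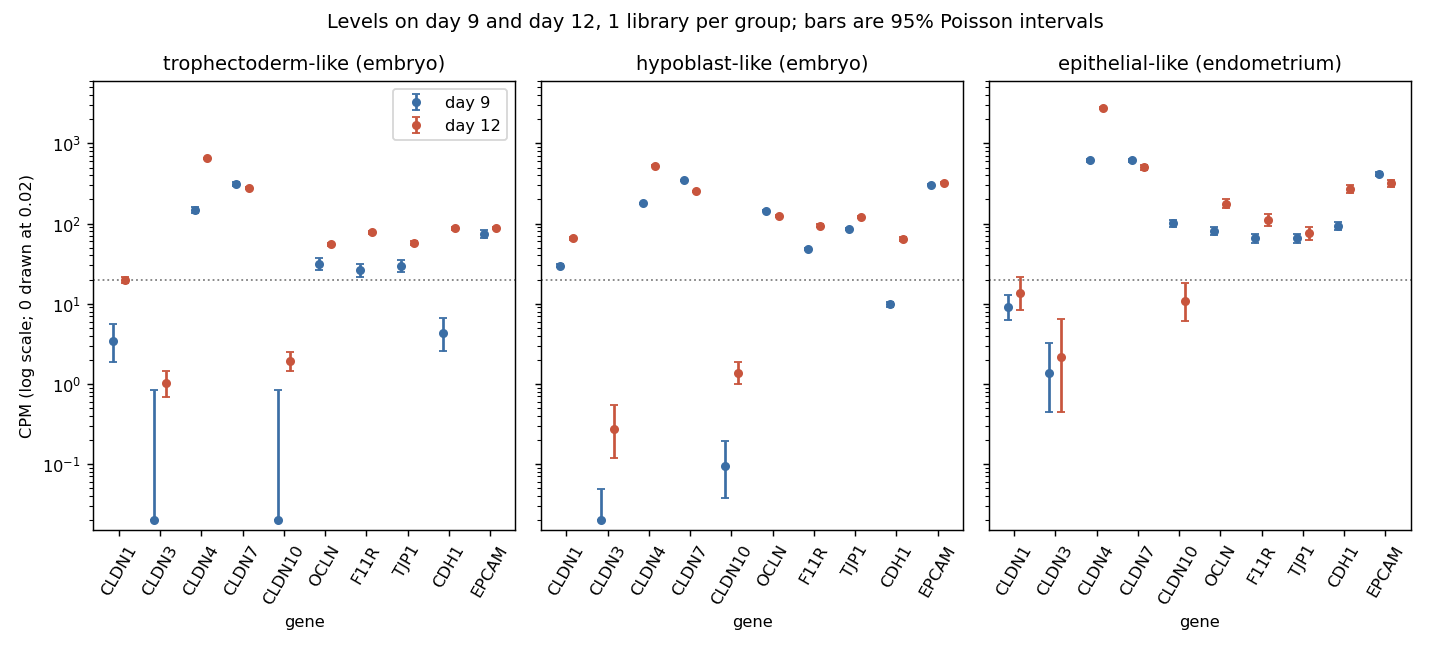
CPM of each gene on day 9 and day 12 (log axis; 0 is drawn at 0.02 and the dotted line is 20 CPM) in trophectoderm-like, hypoblast-like and epithelial-like cells; points are 1 library each and bars are 95% Poisson intervals. CLDN4 and CDH1 are higher on day 12 in all 3 panels, and CLDN10 is at 101 and then 10.9 CPM in epithelial-like cells. CLDN7 stays within 2-fold, with day 12 over day 9 ratios of 0.903, 0.723 and 0.819 in the order of the panels.

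In the uterine epithelium CLDN4 and CDH1 were again higher on day 12, and CLDN10 was lower. CLDN4 in epithelial-like cells stood at 612 CPM (587 to 638) on day 9 and 2791 CPM (2703 to 2880) on day 12, a ratio of 4.56 (4.32 to 4.80). CDH1 stood at 93.2 CPM (83.6 to 104) and 270 CPM (243 to 299), a ratio of 2.89 (2.49 to 3.36). OCLN followed with 81.5 CPM (72.5 to 91.3) and 176 CPM (155 to 200), a ratio of 2.16 (1.82 to 2.57). CLDN10 was 9.30-fold lower on day 12 (5.57 to 16.8), at 101 CPM (91.1 to 112) and then 10.9 CPM (6.09 to 17.9).

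Of the 8 genes that reached 20 CPM on a day in epithelial-like cells, these 3 were called higher and CLDN10 lower, against 12.1% of 6567 genes called higher and 12.0% lower. Only 3.93% of genes had a larger ratio than CLDN4 and 7.25% a larger one than CDH1, while 98.9% had a larger ratio than CLDN10. F11R was at 66.1 and 111 CPM (1.68, 1.36 to 2.06). TJP1 was at 65.3 and 75.4 CPM and CLDN1 at 9.05 and 13.8 CPM, and both ratios had intervals that include 1 (0.909 to 1.46 and 0.818 to 2.76). EPCAM was at 417 and 319 CPM (0.764, 0.686 to 0.851) and its partner CLDN7 at 617 and 505.5 CPM (0.819, 0.751 to 0.892). CLDN3 had 5 and 3 UMIs in all of these cells.

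The number of cells with a UMI gave the same picture at equal depth. After each cell was thinned to 1000 UMIs, CLDN4 was seen in 37.6% of day 9 epithelial-like cells (33.8 to 41.4, exact binomial 95% interval) and 74.4% on day 12 (69.5 to 78.9); before thinning the shares were 67.3% and 83.7%. T or NK cell-like cells, which should lack CLDN4, had 5.78% and 3.94% at 1000 UMIs, and 7.51% and 5.06% before. The median depth was 4122 and 3482.5 UMIs in epithelial-like cells, against 1213 and 1252 in these immune cells. CDH1 was seen in 8.45% and 22.4% of thinned epithelial-like cells (33.5% and 52.9% before), and in 0.193% and 0.422% of T or NK cell-like cells. CLDN10 was seen in 6.1% and 1.74% (23.8% and 2.62% before), beside 1.54% and 0.141% in T or NK cell-like cells. Cells with UMIs of 3 or more of the 10 genes made up 14.7% and then 30.5% of thinned epithelial-like cells.

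**Figure D3:**
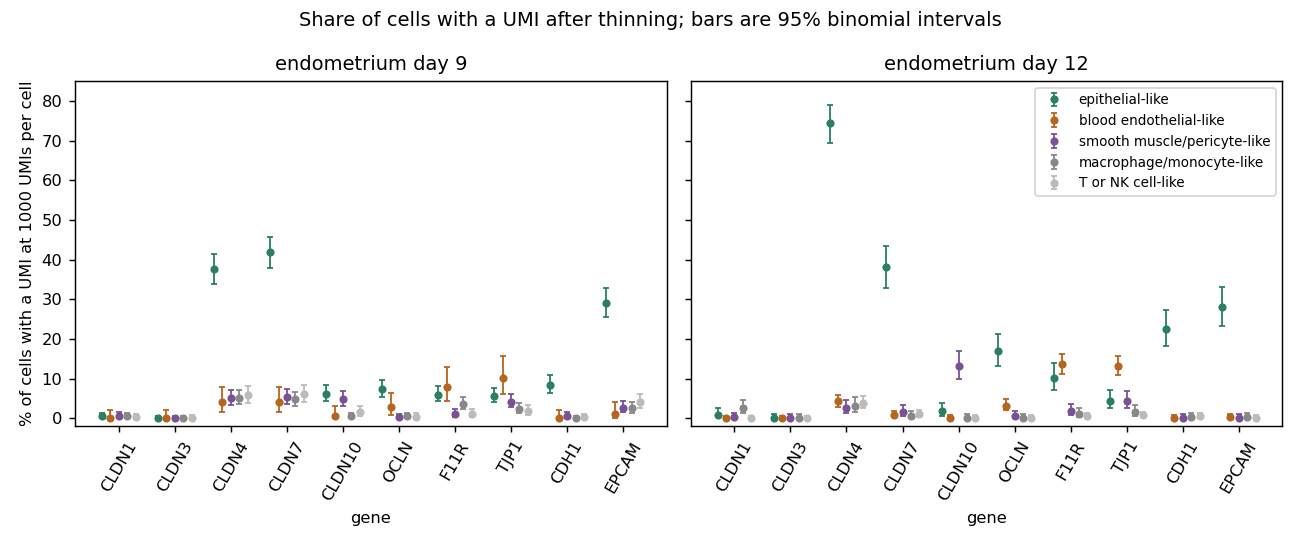
Share of endometrial cells with a UMI of each gene after thinning to 1000 UMIs per cell, in 5 classes on each day; bars are exact 95% binomial intervals. CLDN4 in epithelial-like cells lies at 37.6% on day 9 and 74.4% on day 12, and immune classes lie between 3.04% and 5.78% for that gene.

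The epithelial-like class holds 2 kinds of cluster on each day, and their proportions differed. Day 9 cluster 6 (369 cells) and day 12 cluster 9 (286 cells) both have CLDN8 and FXYD3 among their leading genes and share 12 of 50. Day 9 cluster 8 (270 cells) and day 12 cluster 16 (58 cells) both have CCL28 and also share 12; the crossed pairs share 4 and 0. The CLDN8 cluster held 57.7% of the class on day 9 and 83.1% on day 12. This matching was made after the values were seen. EPCAM is itself among the 12 leading genes that the CCL28 clusters share.

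CLDN10 and CLDN4 separated these clusters in opposite ways. CLDN10 was at 8.92 CPM in the CLDN8 cluster and 191 CPM in the CCL28 cluster on day 9, a 21.4-fold difference (13 to 37.8), and at 0.829 and 80.9 CPM on day 12. CLDN4 was at 953 and 282 CPM on day 9, 3.37-fold higher in the CLDN8 cluster (3.06 to 3.73), and at 3070 and 844 CPM on day 12 (3.64-fold, 3.08 to 4.32). EPCAM went with CLDN10: it was at 211 and 618 CPM on day 9 and 293 and 503 CPM on day 12. The CCL28 cluster was thus high in CLDN10 and EPCAM, and the CLDN8 cluster high in CLDN4, on both days. For EPCAM this is partly set in advance, because the matching of the CCL28 clusters used that gene.

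Within matched clusters CLDN4 was higher on day 12 in each. The ratio was 3.22 in the CLDN8 cluster (3.04 to 3.41) and 2.99 in the CCL28 cluster (2.47 to 3.60). CDH1 was 2.76-fold higher in the CLDN8 cluster (2.30 to 3.31), and 1.56-fold in the CCL28 cluster with an interval that includes 1 (0.949 to 2.45). OCLN was 2.30-fold higher in the CLDN8 cluster and 1.14-fold in the CCL28 cluster (0.636 to 1.91). CLDN10 was 2.36-fold lower on day 12 in the CCL28 cluster (1.39 to 4.35), which held most CLDN10 UMIs of the class. In the CLDN8 cluster it was 10.8-fold lower with a wide interval (1.67 to 451), from 8.92 and 0.829 CPM. Those levels lay near those of T or NK cell-like cells (10.1 and 0.876 CPM) and stromal-like cells (6.66 and 0.750 CPM). Smooth muscle or pericyte-like cells, described below, were higher on both days. The part of free RNA in the CLDN10 of the CLDN8 cluster was not tested. EPCAM, lower over the class, was 1.39-fold higher in the CLDN8 cluster (1.2 to 1.61) and at a ratio of 0.814 (0.647 to 1.01) in the CCL28 cluster. The class ratio of EPCAM thus lies below that of either matched cluster, and the clusters' proportions also differ between the days.

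**Figure D4:**
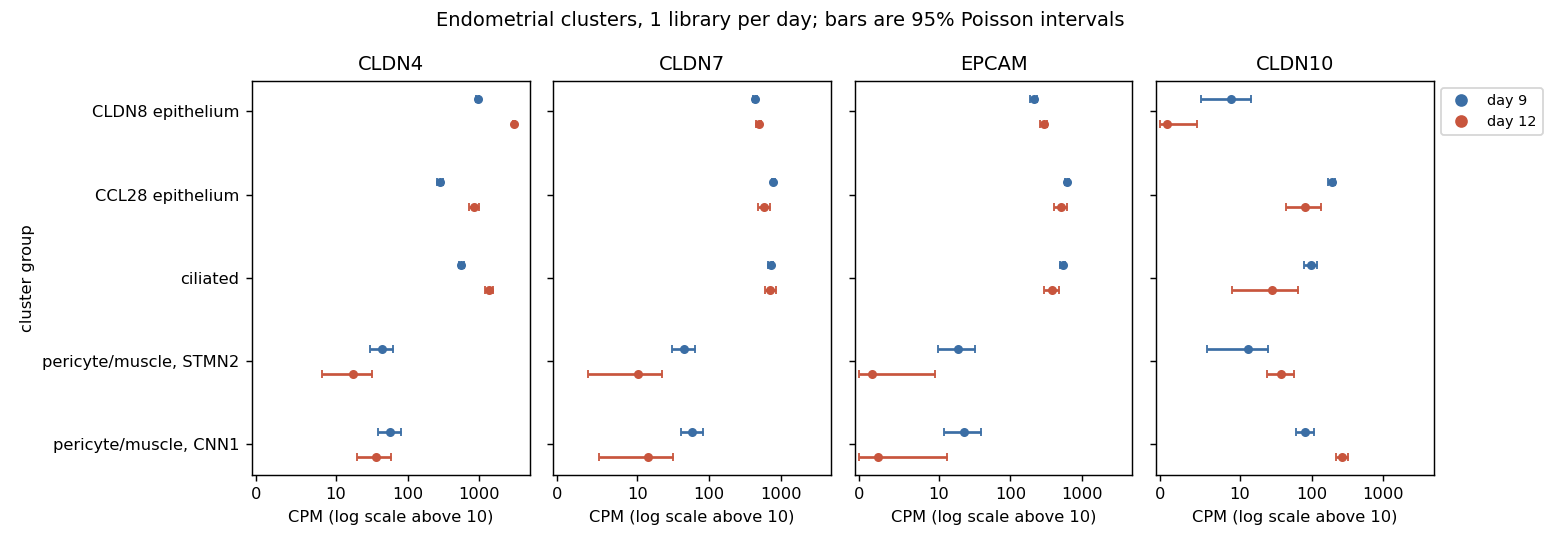
CPM (log axis above 10) of CLDN4, CLDN7, EPCAM and CLDN10 in matched endometrial clusters on day 9 and day 12, with 95% Poisson intervals and 1 library a day. CLDN4 is higher on day 12 in both epithelial clusters (953 to 3070 and 282 to 844 CPM), while CLDN10 sits in the CCL28 epithelium, the ciliated cells and the CNN1 muscle cluster.

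Ciliated epithelial-like cells (122 on day 9, cluster 12, and 43 on day 12, cluster 20) shared the CLDN4 and CLDN10 differences but not those of CDH1 and OCLN. CLDN4 was at 557 and 1382 CPM (2.48, 2.13 to 2.88) and CLDN10 at 97.6 and 27.6 CPM, 3.53-fold lower from 97 and 5 UMIs. CLDN7 was at 726 and 713 CPM. CDH1 was at 116 and 60.8 CPM (0.526, 0.255 to 0.976) and OCLN at 88.5 and 66.3 CPM. The day 12 values rest on few cells, with 11 UMIs of CDH1. By the 20 CPM rule, 14.9% of genes were 2-fold higher and 12.7% lower in this class.

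The epithelial classes held most UMIs of some of the genes. Epithelial-like and ciliated cells together held 17.8% of all UMIs of the day 9 endometrium and 6.13% on day 12. They held 73.8% and 80.9% of the CLDN4 UMIs, 75.9% and 84.1% of CLDN7, 86.2% and 83.8% of CDH1, and 84.2% and 86.4% of EPCAM. TJP1 was spread widely, with 20.5% and 8.72% in these cells. For F11R the share was 55.6% and 19.2%, for OCLN 77.2% and 55.1% and for CLDN10 69.8% and 11.9%. Such shares also move with the size of each class in its library. Blood endothelial-like cells held 4.89% of all UMIs on day 9 and 16.5% on day 12. The levels of F11R and OCLN within epithelial-like cells were higher on day 12, at 66.1 and then 111 CPM and at 81.5 and then 176 CPM.

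On day 9, 8 of the 10 genes reached 20 CPM in an endometrial class, and 7 of these were highest in epithelial-like or ciliated cells, while TJP1 was highest in blood endothelial-like cells. On day 12, with the 43 ciliated cells left out of the order for their number, 5 of 9 were highest in epithelial-like cells. Among all genes at 20 CPM or more in a class, 36.1% and 22.4% were highest there. The other 4 on day 12 were TJP1 and F11R in blood endothelial-like cells, CLDN10 in smooth muscle or pericyte-like cells and CLDN1 in macrophage or monocyte-like cells.

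Endothelium has tight junctions of its own, in which ZO-1 and JAM-A are known parts. In blood endothelial-like cells (177 and 752 cells) TJP1 was at 164 CPM (142 to 188) on day 9 and 134 CPM (124 to 146) on day 12, a ratio of 0.821 (0.699 to 0.967). F11R was at 79.1 CPM (64.5 to 96.2) and 126 CPM (115 to 137), a ratio of 1.59 (1.28 to 1.99). OCLN was level at 33.7 and 33.6 CPM. CDH1, which endothelium replaces with another cadherin, was at 7.05 and 0.477 CPM. For F11R the day 12 interval overlaps that of epithelial-like cells (94.1 to 130), so the order of these 2 classes is not set.

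CLDN10 was also present in smooth muscle or pericyte-like cells (573 cells, clusters 7 and 9, and 390 cells, clusters 10 and 13), where it was higher on day 12. Its level was 43.8 CPM (33.1 to 56.9) and then 132 CPM (110 to 156), a ratio of 3.01 (2.19 to 4.19), and 1.95% of genes had a larger ratio. At 1000 UMIs 4.71% and 13.1% of these cells had a CLDN10 UMI (8.90% and 20% before thinning). On each day it was higher in the cluster led by CNN1, KCNAB1 and TAGLN than in the one led by STMN2: 81.2 against 12.9 CPM on day 9 (6.31-fold, 3.06 to 14.6) and 262 against 37.8 CPM on day 12 (6.95-fold, 4.37 to 11.5). CLDN10 was thus lower on day 12 in the epithelium and higher in these cells. By the 20 CPM rule 6.15% of genes were 2-fold higher in them and 5.05% lower.

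CLDN1 in macrophage or monocyte-like cells rested on 10 UMIs on day 9 and 28 on day 12, or 5.71 and 20.4 CPM (3.58, 1.69 to 8.25). Its intervals on day 12 (13.6 to 29.5) overlap those of epithelial-like cells (8.30 to 21.5). In that class 6.93% of genes were 2-fold higher and 7.17% lower.

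CLDN4, CLDN7 and EPCAM were also counted in endometrial cells that should lack them. Over the 6 non-epithelial classes CLDN4 ran from 37.6 to 55.6 CPM on day 9 and from 25 to 37.5 CPM on day 12, so that epithelial-like cells exceeded the highest by 11 and 74.5 times. CLDN7 ran from 33.1 to 58.2 CPM and from 1.29 to 12.0 CPM, and EPCAM from 5.70 to 36.7 CPM and from 1.75 to 2.92 CPM. In stromal-like cells CLDN7 stood at 44.4 CPM and then 5.33 CPM, 8.33-fold lower (6.52 to 10.8), and EPCAM was 6.84-fold lower (4.80 to 10.0). CLDN4 there was at 47.0 and 33.4 CPM.

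The counts of CLDN4 per CLDN7 count in most of these classes were close to that of the epithelium of the same library. On day 9 the ratio was 0.992 in epithelial-like cells (0.936 to 1.05) and between 0.889 and 1.17 in the 6 other classes. On day 12 it was 5.52 in epithelial-like cells (5.09 to 5.99), 6.27 in stromal-like cells (4.87 to 8.17), 6.11 in blood endothelial-like, 5.83 in macrophage or monocyte-like and 4.62 in T or NK cell-like cells. B or plasma cell-like cells had 29 CLDN4 UMIs and 1 CLDN7 UMI. The smooth muscle or pericyte-like class was lower at 2.08. EPCAM was less even: on day 9 there were 0.676 EPCAM UMIs per CLDN7 UMI in epithelial-like cells (0.633 to 0.722), 0.405 in stromal-like cells (0.350 to 0.467), 0.318 in blood endothelial-like cells and 0.172 in B or plasma cell-like cells. On day 12 the epithelial-like value was 0.631 (0.559 to 0.712) and the stromal-like value 0.493 (0.319 to 0.749). The part of free RNA in the levels of these genes outside the epithelium was not tested.

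The 3 epithelial classes can be set side by side for the pair whose proteins bind each other. EPCAM UMIs per CLDN7 UMI were 0.239 and 0.315 in trophectoderm-like cells, 0.874 and 1.29 in hypoblast-like cells, and 0.676 and 0.631 in epithelial-like cells (day 9, then day 12). The hypoblast-like class had the most EPCAM relative to CLDN7 on both days.

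Other genes of the same structures did not all follow. In trophectoderm-like cells, 31.6% of 7770 genes at 5 CPM or more were 2-fold higher on day 12 and 10.9% lower, with a median log2 ratio of 0.31. Among tight junction scaffolds and polarity proteins 6 were higher, 1 was lower and 7 were within 2-fold (median 0.79). AMOTL2 and AMOT, which link junctions to Hippo signalling, were at 12.9 and 84.1 CPM and at 10.2 and 60 CPM, while the polarity kinase PRKCZ was at 103 and 96.7 CPM. Among adherens junction genes 3 were higher and 1 lower of 9 (median 0.87). CTNNB1 (beta-catenin), which binds the tail of E-cadherin, was at 52.9 and 202 CPM, CTNNA1 at 82.5 and 151 CPM, CTNND1 at 26.0 and 63.5 CPM and LIMA1 at 42.5 and 8.18 CPM.

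The other claudins of trophectoderm-like cells numbered 3 at this level, with 2 higher. CLDN6, a claudin of embryonic epithelia, was at 147 and 485 CPM and CLDN8 at 46.8 and 78.2 CPM. Of 4 other tight junction membrane proteins 3 were higher (median 1.30): CXADR was at 19.7 and 52.4 CPM. Desmosome genes were mixed, with 3 higher, 2 lower and 4 within 2-fold (median 0.33). JUP was at 56.3 and 99 CPM and DSC2 at 39.3 and 83.5 CPM, against PERP at 296 and 159 CPM and PKP3 at 86.1 and 39.2 CPM.

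The protease matriptase (ST14) cleaves EPCAM and is held in check by SPINT1 and SPINT2. In this list 3 of 5 genes were 2-fold higher in trophectoderm-like cells (median 1.22). ST14 was at 35.0 and 107 CPM, SPINT1 at 66.2 and 156 CPM and SPINT2 at 234 and 282 CPM. Of 11 regulators of epithelial genes 5 were higher and 0 lower (median 0.72). The transcription factor KLF4 was at 3.61 and 67.4 CPM, OVOL1 at 17.4 and 81.2 CPM, KLF5 at 43.4 and 66.3 CPM and the splicing factor ESRP1 at 48.3 and 102 CPM. All of these list medians lay above the 0.31 of all genes.

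In hypoblast-like cells 13% of 8234 genes were 2-fold higher, 10.7% were lower and the median was -0.16. Of 9 adherens junction genes 0 differed 2-fold (median -0.01), although CDH1 was 6.56-fold higher. CTNNB1 was at 96.0 and 118 CPM and N-cadherin (CDH2) at 110 and 185 CPM. Of 17 scaffolds 3 were higher and 0 lower (median 0.10), and of 6 other tight junction membrane proteins 1 was higher and 1 lower (median -0.40), with CXADR at 143 and 86.6 CPM and LSR at 111 and 68.5 CPM. CLDN6 was at 687 and 480 CPM. Desmosome genes had 2 higher of 8 (median 0.73): DSC2 was at 14.6 and 128 CPM and PERP at 142 and 260 CPM. Of 8 regulators 4 were higher (median 1.02), among them HNF4A at 62.2 and 176 CPM, and of 5 genes of the matriptase list 1 was higher (median 0.36).

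In epithelial-like cells 12.5% of 10490 genes were 2-fold higher and 15.3% lower, with a median of -0.12. The matriptase list had 2 of 5 higher (median 0.96): ST14 was at 38.1 and 175 CPM, SPINT1 at 41.4 and 122 CPM and SPINT2 at 634 and 1233 CPM. Among 9 regulators 2 were higher (median 0.37), OVOL1 at 53.5 and 329 CPM and ELF3 at 81.5 and 289 CPM, with KLF5 at 232 and 420 CPM and KLF4 level at 359 and 363 CPM. Of 7 other tight junction membrane proteins 1 was higher, tricellulin (MARVELD2) at 29.9 and 74.7 CPM. Of the other claudins 2 reached 5 CPM and 0 differed 2-fold over the class (median -0.15), CLDN8 being at 439 and 449 CPM. CLDN8 is a leading gene of the cluster that held 57.7% of the class on day 9 and 83.1% on day 12. Its level within each cluster is not given here.

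The catenins of the epithelial-like class stayed level beside CDH1. CTNNA1 was at 197 and 206 CPM, CTNNB1 at 162 and 170 CPM and CTNND1 at 94.3 and 80.5 CPM, although 3 of the 11 adherens junction genes were 2-fold higher (median 0.46). Of 17 scaffolds 1 was higher and 1 lower, with CGNL1, a cingulin relative, at 33.5 and 76.9 CPM. Of 8 desmosome genes 1 was higher (median 0.15). VIM, a mesenchymal gene, was at 296 and 629 CPM in the same cells. Summed stromal markers stood at 6265 and 9128 CPM in this class, and the part of stromal RNA in its VIM was not tested.

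**Figure D5:**
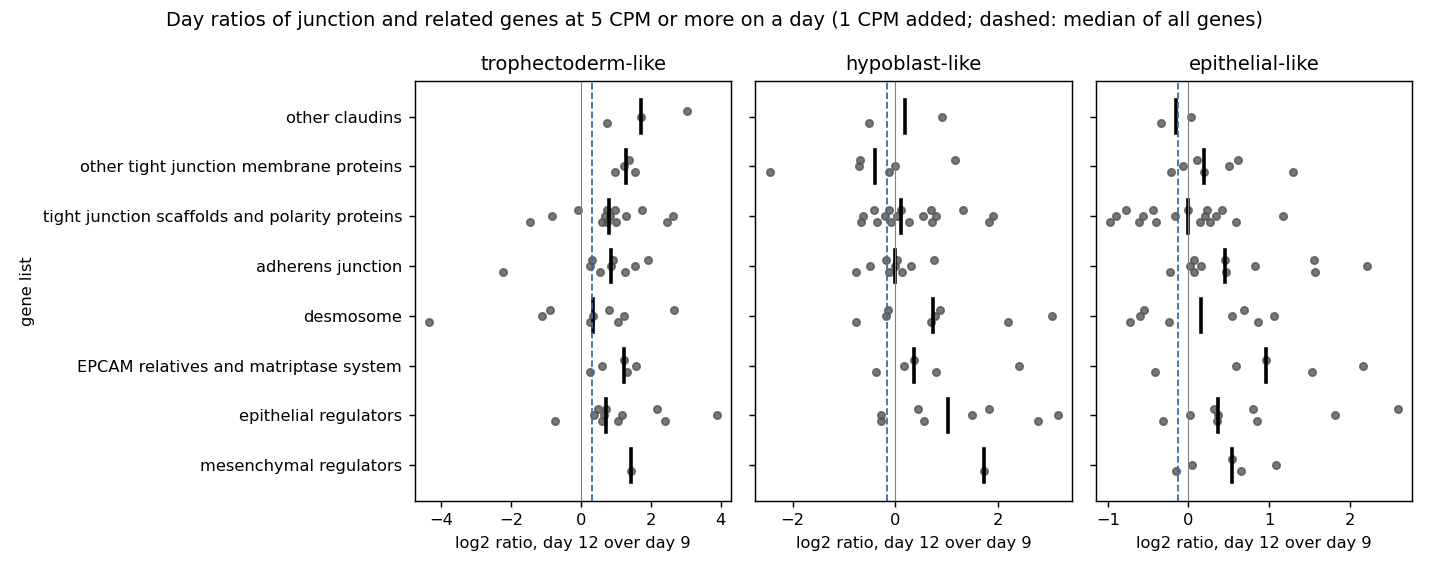
Log2 ratio of day 12 over day 9 (1 CPM added to each level) for genes of each list at 5 CPM or more on a day, in 3 classes with 1 library a day; dots are genes, black bars list medians and the dashed line the median of all genes. In trophectoderm-like cells the list medians lie at or above the all-gene median of 0.31, whereas adherens junction genes of hypoblast-like cells centre on -0.01.

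Genes with the pattern most like each of the 10 were taken over 20 combinations of class and library with 50 cells or more, by Pearson's r of log2(CPM + 1). Classes of a library share its depth and free RNA, so these values only describe. CLDN4 was most like MYO5B (0.959), OVOL1 (0.957) and MARVELD3 (0.946), and CDH1 most like CLDN4 (0.935), USP43 (0.926) and PRSS8 (0.921). CLDN7 was most like EPCAM (0.957), FAM83H (0.945) and FAM83G (0.940), and EPCAM had r of 0.958 with FAM83H and 0.957 with WWC1. F11R was most like LRRC1 (0.900), OCLN (0.878) and TSPAN13 (0.872), and OCLN most like LRATD2 (0.935) and C6orf132 (0.929). CLDN10 stood apart, with CDH6 (0.934), ALDH1A3 (0.927) and DGKG (0.920) nearest and r of 0.06 with CLDN1 and 0.10 with OCLN. TJP1 was nearest to ENSSSCG00000003090 (0.935), EFNB2 (0.929) and TDRP (0.924), and CLDN1 to SLC45A4 (0.887), SGPL1 and CKB. CLDN3, with few UMIs throughout, had PTPRF (0.840), CHMP4C and CMTM4 nearest.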

How the data were processed

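The 4 deposited matrices hold raw UMI counts per gene and barcode. Per the submitters' processing notes they were made with Cell Ranger 6.1.2 against Sscrofa11.1; the day 9 embryo file's header names Cell Ranger 4. Cells of that library were called at 2759 UMIs or more, and in all libraries at least 1000 UMIs, at least 500 genes and at most 20% mitochondrial counts were required. Scrublet removed 1, 93, 0 and 0 cells; it did not work in 3 of the 4 libraries, so doublets may remain. Clustering (scanpy 1.11.5, 2000 variable genes, 30 components, 15 neighbours, Leiden resolution 0.6) left out junction genes, and clusters were named only from listed markers. Counts were summed per class and library and divided by the total. Depth in cells was 82526421, 64299480, 26070993 and 25457541 UMIs. A call means a 2-fold ratio at 20 CPM or more on a day; for lists, 5 CPM. Limits for 0 counts use 3 counts. With 1 library per group no test was possible. Scripts were tested on simulated data. All 10 genes, and per list the up to 4 highest genes in a class, were named, and for each of the 10 the 3 most alike. A few genes that this rule names are not reported here. The genes and lists were chosen with earlier results of these data known.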

Additional observations from a re-analysis of the deposited data

How the results depend on the processing

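No paired analysis was possible because each group is 1 library and the labels give no replicate numbers; for the same reason no replicate could be left out. Of 300 log2 day ratios of single genes under 10 settings, the 140 whose main value was at least 2-fold kept their direction; 2 others changed it, CLDN7 in trophectoderm-like cells (0.14 on the median scaling) and EPCAM there (-0.33 with day 9 cells called at 1000 UMIs). In trophectoderm-like cells 6 genes in place of 3 were 2-fold higher on the median scaling, beside 34.1% of all genes, and 6 with no minimum level. In hypoblast-like cells 4 in place of 3 were higher on the median scaling, beside 13.4% of all genes, and 5 with no minimum level. The genes added with no minimum level were CLDN3 and CLDN10 in both classes and CLDN1 in trophectoderm-like cells, all under 20 CPM. No share of all genes is at hand for the counts with no minimum level, so nothing is read from them. The number highest in day 12 trophectoderm-like cells was 2 in place of 4 with at least 2000 UMIs per cell, with doublets kept, at Leiden resolution 1.0 and with both libraries of a tissue clustered together. Leaving out clusters with a mitochondrial gene among their leading genes was a setting chosen after seeing the data. It gave 4 genes higher in trophectoderm-like cells, TJP1 being added at a log2 ratio of 1.04, and left the other counts as they were. No share of all genes is at hand for this setting either. The CLDN10 log2 ratio in epithelial-like cells was -3.10, or -2.10 as a mean over cells. The limit for CLDN3 depends on the depth of the class. Day 9 hypoblast-like cells had 0 UMIs of it among 74819803 UMIs. Epithelial-like cells of day 12 had 3 among 1378918 UMIs, a depth at which 0 counts would allow up to 2.18 CPM.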

Other observations

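A pair of small day 12 clusters, one in each tissue and both without a name from the markers, had CLDN4, CDH1 and OCLN above every larger cluster of their library. The embryo cluster (cluster 11, 20 cells, 69284 UMIs) was led by SPINK9, CDSN, S100A12 and SPP1 and had CLDN4 at 2988 CPM, CLDN7 at 808 CPM, F11R at 736 CPM, CDH1 at 433 CPM and OCLN at 346 CPM. The endometrial cluster (cluster 21, 19 cells, 60289 UMIs) had CLDN4 at 3500 CPM, CDH1 at 614 CPM, OCLN at 448 CPM and CLDN7 at 481 CPM. The embryo cluster shared 11 of its 50 leading genes with that cluster and 10 with the CLDN8 epithelial cluster of the same day. In the embryo cluster summed epithelial markers were at 6582 CPM, summed hypoblast markers at 5210 CPM and summed trophectoderm markers at 1472 CPM. The highest epithelial markers there were KRT7, KRT8, WFDC2 and KRT18, and the highest hypoblast marker was APOA1. The origin of either cluster was not tested.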
